A study of Mus musculus with 18 samples.

Results

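Thymic invariant natural killer T (iNKT) cells positive for the surface receptor NK1.1 were compared with those negative for it, in wild-type (WT) C57BL/6 mice. The comparison uses 6 of the 18 microarrays of the series, 3 of WT stage 3 (S3) and 3 of WT stage 2 (S2). Both populations were sorted from thymus as cells positive for TCRb, the T cell receptor beta chain, and for the PBS57-loaded CD1d tetramer, and negative for CD24. S3 cells were CD44+ NK1.1+, and S2 cells were CD44+ NK1.1-. No treatment, age or sex is given in the labels, and they do not say whether WT mice carried Cre or floxed alleles. The other 12 arrays cover WT stage 1 (S1, CD44- NK1.1-) and the same 3 stages of Mst1KO mice, in which Cd4Cre deletes floxed Mst1 (Stk4). They enter here where a value is set beside the WT change. All 18 arrays also served the filter, the choice of probe set and the estimate of spread behind each SE and p. Thymocytes were first enriched with a CD8 microbead kit described as positive selection, and small amounts of RNA (1 to 20 ng) were amplified before hybridisation to MoGene-2_0 arrays.

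As background, iNKT cells leave the double-positive thymocyte pool through strong receptor signals, proliferate, and acquire effector programs while still in the thymus. Cells without NK1.1 include IL-4-producing NKT2 cells, IL-17-producing NKT17 cells and precursors. Cells with NK1.1 are mostly interferon-gamma-producing NKT1 cells, which depend on T-bet and IL-15, carry NK cell receptors and tend to stay in the thymus.

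Values are log2 expression. A difference is the WT S3 mean minus the WT S2 mean on the log2 scale, given ± SE with n = 3 arrays in each group, and it was called at a Benjamini-Hochberg adjusted p under 0.05 in limma. The number of arrays limits the precision of each value. Each SE and p rests on a spread shared over all 6 groups, so an SE can be smaller than the scatter of the S3 and S2 arrays alone would give. Klra5, for example, had an SE of 0.60 with SDs of 0.37 in S3 and 1.79 in S2. The labels do not say whether replicates came from separate mice, so the p-values speak only of the scatter among the arrays of the series. Each sort was measured in bulk, so fewer cells of a type and less RNA per cell cannot be told apart.

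Of 13034 genes tested, 3073 were called (23.6%), 1356 higher in S3 (10.4%) and 1717 lower (13.2%). These shares are the background for the counts of list members given below. The 3 arrays of S3 did not overlap the 3 of S2 for 34.9% of all genes tested. The median size of a called change was 1.49-fold among higher genes and 1.53-fold among lower genes. Large changes were fewer, with 236 genes higher and 436 lower by at least 2-fold, and 20 in each direction by at least 8-fold. The arrays of a stage correlated at 0.980 to 0.984 over the genes tested, and no S3 array correlated with an S2 array above 0.947. The leading principal component of these 6 arrays held 68.3% of the variance and separated the stages. When the arrays were centred on their medians, the share of higher genes among those called was 55.3%, against 44.1% in the values as deposited, so the split between directions depends on the scaling.

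**Figure D1:**
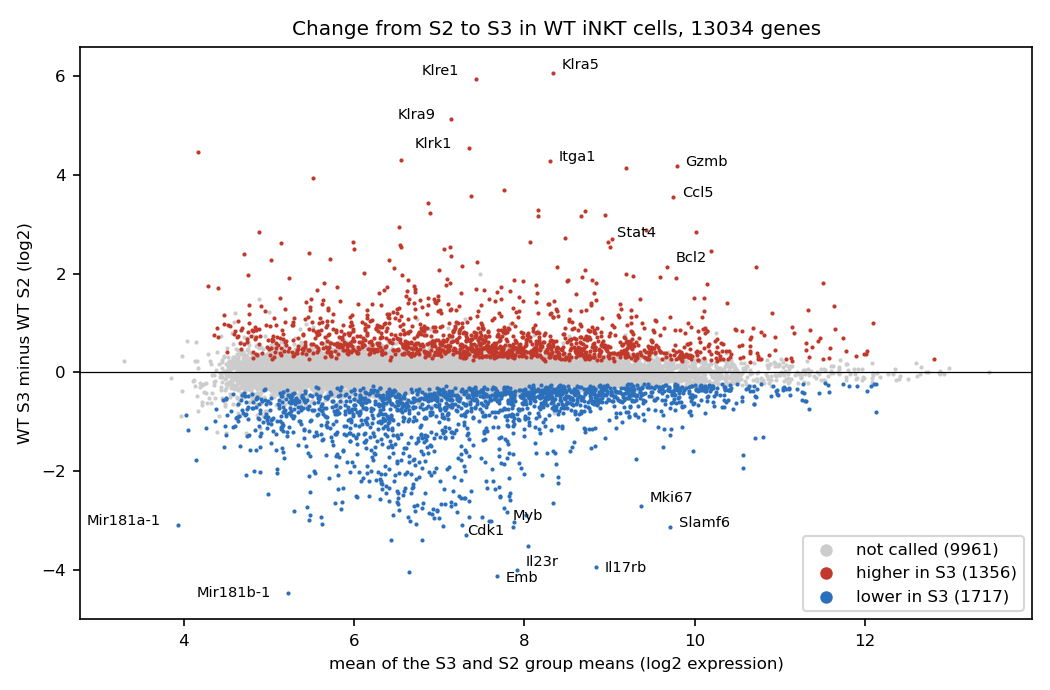
Each point is a gene: the horizontal axis is the mean of the S3 and S2 group means (log2 expression), the vertical axis is WT S3 minus WT S2 (log2), with called genes in red (1356 higher) and blue (1717 lower). The extremes are NK receptor genes at the top (Klra5 at 6.07) and Mir181b-1 at the bottom (-4.47).

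The genes of the sort gate check the labels and are no result. Klrb1c, which encodes NK1.1, read 8.51, 8.65 and 8.39 on the S3 arrays, against 5.40, 4.97 and 5.45 on the S2 arrays. Cd44, positive in both gates, read 7.99, 7.99 and 8.14 in S3, against 7.71, 7.44 and 7.33 in S2. Cd24a, absent from both gates, read 5.32, 4.84 and 5.33 in S3, against 4.05, 4.24 and 4.73 in S2. NK1.1 RNA followed the gate, and it also lay above the array median on all 3 S2 arrays.

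NK cell receptor genes were among the largest increases, 8 of the 20 genes at least 8-fold higher in S3, with the gate gene Klrb1c left out. Of 58 receptor genes listed, 37 had a probe set of a single gene and 27 passed the filter on low values. Of these 27, 23 were higher in S3 and none lower, with a median difference of 2.28, beside a median of -0.00 over all genes tested. Without Klrb1c, whose product the sort used, 22 of 26 were higher and the median was 2.10. A gene bright in S3 alone could pass this filter through S3, so the 27 are not a neutral sample of the family. Receptors of the Ly49 family read MHC class I on target cells. Of 22 Ly49 genes listed only 4 were measured, the pseudogene Klra14-ps among them. All 4 were higher, and so were 7 of 8 CD94/NKG2 genes. The Ly49 and NKG2 genes are near-identical copies within each family, so a probe set may read another member than the one it is named for.

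Klra5, an Ly49 receptor gene, read 10.95, 11.55 and 11.62 in S3, against 5.002, 3.69 and 7.22 in S2. Klre1, whose product pairs with other lectin-like receptors, read 10.18, 10.75 and 10.27 in S3, against 5.17, 3.997 and 4.22 in S2. Klrk1, which encodes the activating receptor NKG2D, read 9.54, 9.70 and 9.63 in S3, against 5.38, 4.48 and 5.33 in S2. The S2 values of Klra5 spread over a wide range, with an SD of 1.79 against 0.37 in S3, yet the groups did not overlap for any of these genes. The differences were 6.07 ± 0.60 for Klra5 (adjusted p = 1.34e-06), 5.94 ± 0.24 for Klre1 (adjusted p = 1.42e-10) and 4.56 ± 0.26 for Klrk1 (adjusted p = 3.73e-09). In S2 these genes were above the array median on 2, 1 and 2 of the 3 arrays, so their S2 values may lie near the floor of the measurement, and no fold is given. Klrd1, the CD94 chain shared by NKG2 receptors, rose by 4.14 ± 0.49. Its partners Klrc1, Klrc2 and Klrc3 rose by 4.30 ± 0.45, 3.94 ± 0.25 and 4.47 ± 0.32, and Klrc2 and Klrc3 were above the array median on none of the S2 arrays.

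Receptors outside the lectin families also rose. Cd244a (2B4) read 8.26, 7.71 and 8.02 in S3, against 5.51, 4.44 and 5.21 in S2. Slamf7, which like 2B4 belongs to the SLAM family of cell contact receptors, read 11.01, 10.79 and 10.83 in S3, against 8.47, 6.96 and 8.53 in S2. The S2 replicate 2 array was the lowest for both. The differences were 2.94 ± 0.25 for Cd244a, 2.89 ± 0.32 for Slamf7, 2.28 ± 0.35 for the inhibitory receptor Tigit, 1.82 ± 0.15 for the Fc receptor Fcgr3 and 1.15 ± 0.22 for Cd160. Of 10 measured NK signalling adaptors 5 were higher and 1 lower. Fcer1g, the Fc receptor gamma chain, rose by 3.18 ± 0.16, Tyrobp (DAP12) by 2.01 ± 0.19, the guanine exchange factor Vav3 by 0.94 ± 0.20, Hcst (DAP10) by 0.70 ± 0.09 and the phosphatase Ptpn6 (SHP-1) by 0.52 ± 0.08. Sh2d1a, the SAP adaptor needed for iNKT development, fell by 0.52 ± 0.12. Outside this list Pik3ap1 (BCAP), an adaptor for PI3-kinase, rose by 3.16 ± 0.27.

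The increases lay side by side on chromosome 6. In RefSeq gene order, Gabarapl1, Klre1, Klrd1, Klrk1, Klrc3, Klrc2 and Klrc1 were 7 consecutive tested genes higher in S3. After the uncalled Mir680-1 came 7 more, Klri2, Klra5, Klra6, Klra14-ps, Klra9, Styk1 and Ybx3. No longer run of neighbouring tested genes called in the same direction was found among 12946 placed genes. The changes within these runs were uneven, from 0.43 ± 0.11 at Ybx3, a cold shock protein gene, and 1.28 ± 0.16 at Gabarapl1, an autophagy gene, up to 6.07 ± 0.60 at Klra5. Styk1, a kinase-like gene between the Ly49 genes and Ybx3, read 9.01, 9.45 and 9.01 in S3, against 5.87, 5.50 and 5.37 in S2. Chromosome 6 had 14.1% of its tested genes higher in S3, the largest share of any autosome.

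**Figure D2:**
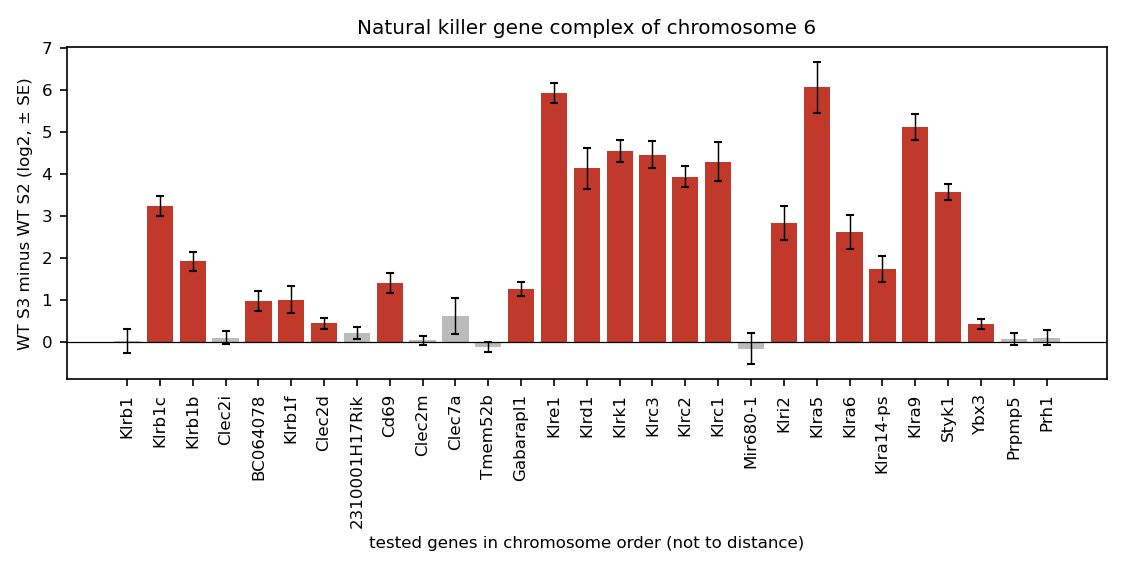
Bars show WT S3 minus WT S2 (log2, ± SE) for tested genes of the natural killer gene complex in chromosome order, red where higher and grey where not called. Both blocks of 7 neighbours, from Gabarapl1 to Klrc1 and from Klri2 to Ybx3, were higher, while Klrb1, Clec2i and Clec2m lay near 0.

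Genes that mark NK and other innate lymphoid cells also differed. Of 7 measured markers 5 were higher (Ncr1, Fcer1g, Tyrobp, Itga2 and Cd7) and 1 lower (Gata3), and the mean of the list lay between 7.82 and 7.94 on the S3 arrays, against 6.58 to 6.73 on the S2 arrays. Eomes, the defining factor of conventional NK cells, did not pass the filter on low values. Gata3 differed by only -0.25 ± 0.08, and its call was lost in 4 of the 6 fits that left out 1 array, with the smallest difference at -0.22 without WT_S3 replicate 3 (adjusted p = 0.101); the others were the fits without WT_S3 replicate 2, WT_S2 replicate 2 and WT_S2 replicate 3. Cd3e, the gene of a CD3 chain of the T cell receptor complex, read 12.15, 12.08 and 11.96 in S3, against 11.70, 11.76 and 11.72 in S2. The part that contaminating cells might have in the receptor changes was not tested.

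The cytotoxic arsenal was more abundant in S3. Of 22 measured granule and killing genes 11 were higher and 2 lower, with a median difference of 0.48. Granzyme B (Gzmb) read 11.95, 11.86 and 11.84 in S3, against 8.76, 6.06 and 8.26 in S2. Perforin (Prf1), which opens the target membrane, read 10.04, 9.86 and 9.50 in S3, against 7.14, 6.22 and 6.19 in S2. The S3 arrays were tight and the S2 arrays scattered, with no overlap. The differences were 4.19 ± 0.48 for Gzmb (adjusted p = 5.88e-06), 3.69 ± 0.44 for Gzma, 3.28 ± 0.23 for Prf1 (adjusted p = 3.25e-08) and 2.28 ± 0.26 for Gzmc. Death ligands rose too, Fasl by 3.28 ± 0.32 and Tnfsf10 (TRAIL) by 1.53 ± 0.20. The granule protein Nkg7 rose by 2.13 ± 0.23, and Serpinb6b and Serpinb9, inhibitors of granule proteases, by 1.25 ± 0.13 and 1.48 ± 0.17. The granzyme genes are related copies, and a probe set may read more than its namesake.

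Cytokine genes split by effector type. Ifng, the interferon-gamma gene, read 9.51, 9.31 and 9.35 in S3, against 7.14, 6.40 and 6.68 in S2, a difference of 2.65 ± 0.20. Il4 read 8.34, 8.31 and 7.99 in S3, against 9.44, 9.37 and 9.30 in S2, a difference of -1.16 ± 0.12. Neither gene overlapped between the stages. Il13 fell by 1.53 ± 0.18, Il17a by 0.94 ± 0.20 and the growth factor gene Csf1 by 2.01 ± 0.20. The chemokine genes Ccl5 and Xcl1 rose by 3.56 ± 0.24 and 2.84 ± 0.34, and the lymphotoxin gene Ltb by 0.60 ± 0.10. In all, 6 of 22 measured cytokine genes were higher and 5 lower.

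Genes used to mark the 3 effector types moved in blocks. Of 20 measured NKT1 genes 18 were higher and 1 lower (Il18r1, at -0.56 ± 0.11), and without Klrb1c 17 of 19 were higher. Of 15 NKT2 genes 12 were lower and 2 higher, and of 19 NKT17 genes 16 were lower and none higher. Some NKT1 genes, such as Klrk1 and Nkg7, are also in the receptor and granule lists. The list medians were 2.002, -1.32 and -1.62. Il17rb, the IL-25 receptor of NKT2 cells, read 6.56, 7.29 and 6.73 in S3, against 11.01, 10.81 and 10.62 in S2. Il23r, which sustains NKT17 cells, read 6.34, 7.48 and 3.92 in S3, against 10.40, 9.80 and 9.56 in S2. The S3 arrays differed widely for Il23r and little for Il17rb, and both stages stayed apart. The exceptions among NKT2 genes were Il4ra, the IL-4 receptor chain (1.86 ± 0.18), and Ltb. Of 3 measured gamma-delta T cell markers 2 were lower, the kinase gene Blk (-2.83 ± 0.30) and Cd163l1 (-1.51 ± 0.12), both also in the NKT17 list. The mean of these 3 lay between 5.96 and 6.47 on the S3 arrays, against 7.64 to 8.03 on the S2 arrays, and their part in the NKT17 change was not tested.

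**Figure D3:**
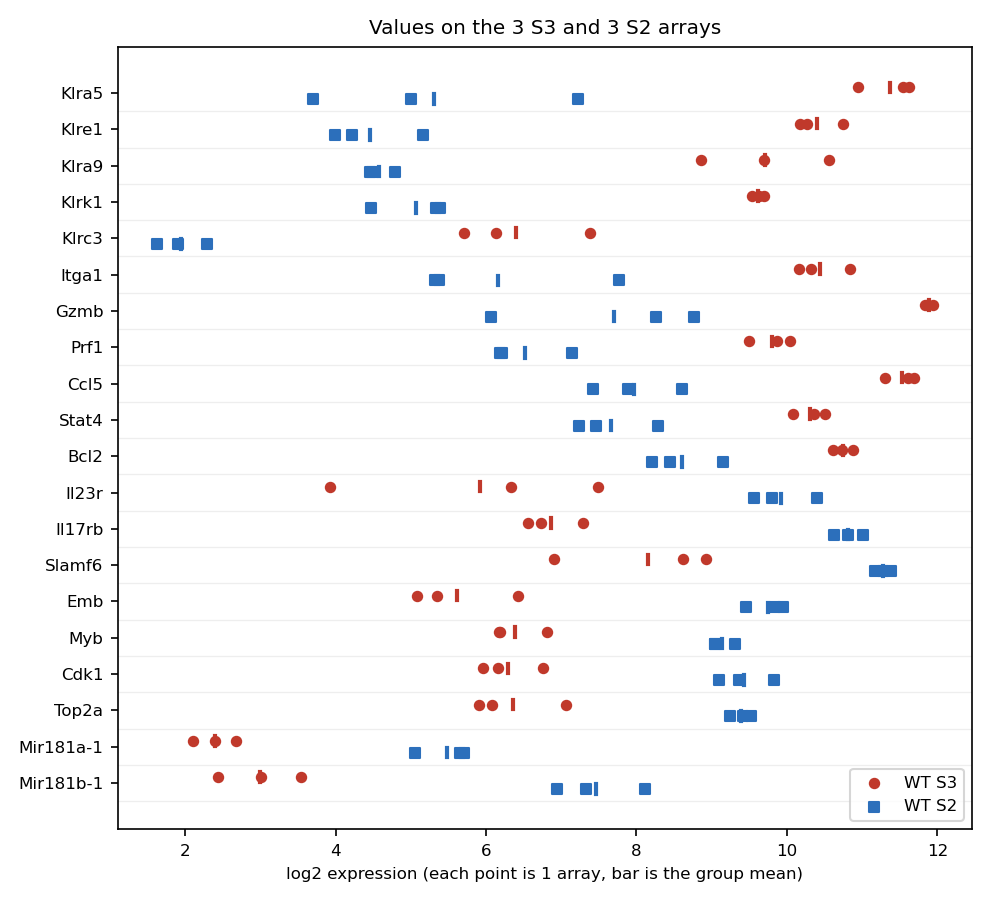
Log2 expression of 20 genes on each of the 3 S3 arrays (red circles) and 3 S2 arrays (blue squares), with bars at the group means. The stages do not overlap for any of these genes, and the S2 arrays scatter most for Klra5, Gzmb and Itga1, and the S3 arrays for Il23r.

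Receptors for cytokines moved in both directions. Of 25 measured receptors outside the common gamma chain family, 10 were higher and 10 lower. Il12rb2, the inducible chain of the IL-12 receptor, read 10.61, 10.53 and 10.47 in S3, against 8.08, 6.50 and 7.46 in S2. Both IL-10 receptor genes rose, Il10ra by 2.49 ± 0.18 and Il10rb by 1.49 ± 0.11. The chains of the interferon-gamma receptor moved apart. Ifngr1, the binding chain, read 10.90, 10.62 and 10.68 in S3, against 9.12, 8.52 and 8.81 in S2 (1.92 ± 0.16). Ifngr2, the signalling chain, read 6.50, 5.94 and 6.05 in S3, against 8.47, 8.46 and 8.09 in S2 (-2.18 ± 0.16). The IL-6 and IL-1 receptor genes Il6ra and Il1r1 had differences of -3.51 ± 0.17 and -2.85 ± 0.29. In the common gamma chain family Il2rb, which transmits IL-15, rose by 1.00 ± 0.10 and Il21r by 1.21 ± 0.17, while Il9r fell by 1.01 ± 0.20. Downstream, Stat4, which carries the IL-12 signal, rose by 2.65 ± 0.29. The feedback inhibitors Cish, Socs2 and Socs1 rose by 1.36 ± 0.17, 0.86 ± 0.10 and 0.63 ± 0.10. Among 17 JAK, STAT and SOCS genes 7 were higher, and Stat5b alone was lower (-0.40 ± 0.10).

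Regulators of lineage changed in both directions, 19 of 62 measured higher and 24 lower. Tbx21 (T-bet), the NKT1 master regulator, read 9.95, 9.90 and 9.82 in S3, against 8.70, 8.37 and 8.80 in S2. Zbtb16 (PLZF), which directs innate-like development, read 9.86, 10.15 and 10.43 in S3, against 11.48, 11.45 and 11.46 in S2. Myb, a factor of proliferating progenitors, read 6.17, 6.19 and 6.81 in S3, against 9.04, 9.04 and 9.32 in S2. None of these genes overlapped between the stages. The differences were 1.27 ± 0.15 for Tbx21 (adjusted p = 9.31e-06), -1.32 ± 0.12 for Zbtb16 (adjusted p = 3.78e-07) and -2.74 ± 0.15 for Myb (adjusted p = 3.35e-09). Irf4 and Vdr, the vitamin D receptor gene, fell by 2.72 ± 0.13 and 2.02 ± 0.34. Id3 fell by 1.99 ± 0.13 while its relative Id2, another inhibitor of E proteins, rose by 0.48 ± 0.11. Runx1 fell by 0.83 ± 0.08 while Runx3 rose by 1.24 ± 0.21. Bhlhe40 and Prdm1 (Blimp-1), repressors of transcription, rose by 1.88 ± 0.21 and 0.75 ± 0.14. Sox4, Lmo4, Aff3 and the Polycomb methyltransferase Ezh2 fell by 1.64 ± 0.20, 1.63 ± 0.10, 1.91 ± 0.18 and 1.75 ± 0.17.

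T cell receptor signalling genes moved in both directions, with a median of 0.08. Of 34 measured 9 were higher (26.5%) and 5 lower (14.7%), beside 10.4% and 13.2% of all genes tested. Themis, a thymocyte signalling regulator, read 4.73, 5.46 and 4.78 in S3, against 6.91, 7.58 and 7.07 in S2. Ubash3a, a negative regulator of receptor signalling, read 7.63, 7.61 and 7.40 in S3, against 5.82, 5.45 and 5.44 in S2. These moved in opposite directions without overlap, at -2.20 ± 0.19 and 1.97 ± 0.19. The phosphatase gene Ptpn22 and the ubiquitin ligase gene Cblb, both inhibitory, rose by 0.86 ± 0.09 and 0.54 ± 0.09. Malt1 and Cd2 rose by 1.12 ± 0.14 and 1.00 ± 0.19, whereas Cd4 and Cd5 fell by 0.74 ± 0.14 and 0.57 ± 0.09. Immediate early genes were more often higher, 21 of 36 against 6 lower, with a median of 0.52. Only 3 of the 36 remained higher when a change beyond 1.5-fold was required. Higher members included Dusp1 (1.26 ± 0.11), Fosl2 (1.39 ± 0.17), Spry2 (1.45 ± 0.33), Klf6 (0.96 ± 0.14), Fosb (0.96 ± 0.18) and Junb (0.80 ± 0.10). The lower members included Nr4a1 (-1.12 ± 0.12), Egr2 (-0.62 ± 0.14), Egr3 (-0.68 ± 0.13) and Irf4.

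Receptors of migration moved in both directions, 9 of 28 measured higher and 11 lower, with a median of 0.06. Among them were 16 chemokine receptors, of which 8 were lower and 3 higher, with a median of -0.52. Ccr7, the lymph node homing receptor, read 5.04, 5.47 and 4.94 in S3, against 7.14, 7.99 and 7.38 in S2. S1pr1, which draws thymocytes out into blood, read 6.68, 6.69 and 6.03 in S3, against 8.80, 9.02 and 9.06 in S2. Cd69, whose product removes that receptor from the surface, read 9.46, 9.25 and 9.74 in S3, against 8.30, 7.38 and 8.56 in S2. The differences were -2.35 ± 0.20, -2.49 ± 0.16 and 1.40 ± 0.23, and no stage overlapped the other. Ccr4, Ccr10, Ccr6, Ccr9, Ccr2 and Cxcr4 had differences of -2.87 ± 0.21, -2.66 ± 0.24, -1.69 ± 0.26, -1.502 ± 0.16, -1.15 ± 0.12 and -0.96 ± 0.17. Cxcr3, the receptor of interferon-induced chemokines, rose by 0.81 ± 0.16 and Ccrl2 by 1.90 ± 0.24. Rgs1 and Rgs2, which dampen signals from such receptors, rose by 1.88 ± 0.25 and 0.88 ± 0.13. The ATP receptor gene P2rx7 fell by 2.61 ± 0.22.

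Of 21 measured integrin genes 5 were higher (23.8%) and 3 lower (14.3%), beside 10.4% and 13.2% of all genes tested. Itga1, the collagen-binding alpha1 chain (CD49a), read 10.83, 10.32 and 10.16 in S3, against 7.77, 5.33 and 5.38 in S2, a difference of 4.28 ± 0.43. Its partner Itgb1 rose by 1.02 ± 0.16, and Itga2 (CD49b), which also pairs with it, by 0.99 ± 0.21. Itgb3 read 6.69, 6.58 and 6.53 in S3, against 9.15, 9.07 and 8.94 in S2, a difference of -2.45 ± 0.14. Emb, encoding the adhesion protein embigin, read 5.35, 6.42 and 5.08 in S3, against 9.84, 9.95 and 9.45 in S2, a difference of -4.13 ± 0.24. Anxa1, the annexin A1 gene, rose by 2.54 ± 0.16.

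Cell division genes were lower almost without exception. Of 90 measured mitosis genes 88 were lower, with a median of -2.05. The other two, Iqgap3 (-0.34 ± 0.20, adjusted p = 0.249) and Pttg1 (0.14 ± 0.11, adjusted p = 0.368), were not called. Of 54 DNA replication genes 44 were lower and none higher, with a median of -0.90, and 22 were lower beyond 1.5-fold. Cdk1, the kinase that drives entry into mitosis, read 5.96, 6.16 and 6.76 in S3, against 9.10, 9.36 and 9.82 in S2. Mki67, the proliferation antigen, read 7.37, 7.84 and 8.82 in S3, against 10.65, 10.69 and 10.84 in S2. Top2a, which untangles replicated DNA, read 6.08, 5.91 and 7.06 in S3, against 9.24, 9.41 and 9.53 in S2. In each case S3 replicate 3 was the highest of the S3 arrays but still below the lowest S2 array. The differences were -3.13 ± 0.20 for Cdk1 (8.78-fold lower, adjusted p = 9.58e-09), -2.72 ± 0.26 for Mki67 (6.57-fold lower, adjusted p = 8.15e-07) and -3.04 ± 0.21 for Top2a (8.23-fold lower, adjusted p = 3.3e-08). The mitotic genes Depdc1a and Ccnb2, a B-type cyclin, had differences of -3.40 ± 0.41 and -3.01 ± 0.21.

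Replication genes showed a range of sizes. The nucleotide reductase gene Rrm2 and the licensing factor gene Cdc6 fell by 2.41 ± 0.26 and 2.05 ± 0.19, the helicase genes Mcm5 and Mcm2 by 1.11 ± 0.13 and 0.89 ± 0.12, and the clamp gene Pcna by 0.32 ± 0.08. Of 21 G1/S regulators 13 were lower and 2 higher. E2f8, E2f2 and Ccne1 had differences of -3.07 ± 0.22, -2.004 ± 0.12 and -1.80 ± 0.19, whereas Ccnd3, a D-type cyclin, rose by 0.57 ± 0.09. The activators of mitotic genes Foxm1 and Mybl2 fell by 1.60 ± 0.16 and 1.31 ± 0.11. Of 36 DNA repair genes 22 were lower and 2 higher, with Neil3 at -2.45 ± 0.15 and Brca1 at -1.34 ± 0.14. Of 16 replication-dependent histone genes 11 were lower, among them H2bc12 (-3.07 ± 0.25), H2ac15 (-3.01 ± 0.30) and H1f5 (-2.99 ± 0.28), with H2bc12 above the array median on none of the S3 arrays. H4c14 alone was higher (1.42 ± 0.39), and it lost its call in 4 of the 6 fits that left out 1 array. Its difference was 0.95 without WT_S2 replicate 3, 1.29 without WT_S2 replicate 2, 1.27 without WT_S3 replicate 1 and 1.24 without WT_S3 replicate 2. Histone genes are near-identical copies, so their members are uncertain. Genes linked to quiescence were mixed, 8 of 32 higher and 7 lower, with Txnip at 1.20 ± 0.14, Mxd1 at 1.04 ± 0.16 and the CDK inhibitor Cdkn2c at -1.27 ± 0.13.

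**Figure D4:**
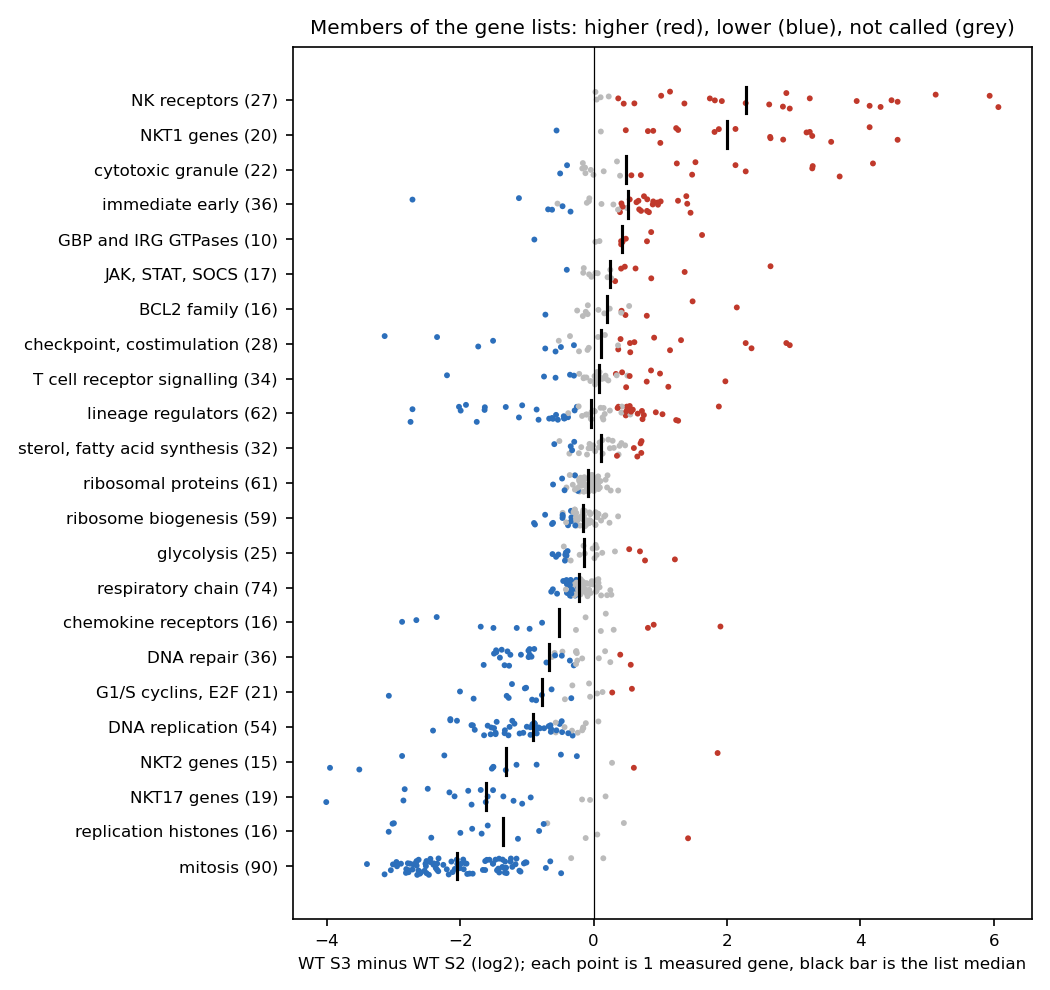
Each point is a measured gene of a list, placed by WT S3 minus WT S2 (log2) and coloured red where higher, blue where lower and grey where not called, with the list median as a black bar. NK receptors (median 2.28) and mitosis genes (median -2.05) lie at opposite ends, and ribosomal protein genes cluster around -0.08.

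Promoters of the falling cell cycle genes were read because many mitotic genes are known to share the cell cycle homology region, whose core is TTTGAA, beside CCAAT boxes. RefSeq promoters (GRCm38.p6, 250 bases before to 50 after the start) were given for 72 of the 90 mitosis genes, 44 of the 54 replication genes and 10188 of all genes tested. On either strand TTTGAA was in 65.3% of the mitosis promoters and 18.2% of the replication promoters, beside 11.96% of all promoters. CCAAT was in 68.1% and 61.4%, beside 38.04%. The E2F-type motif TTTCCCGC was in 4.17% of mitosis and 15.9% of replication promoters, beside 2.08%, and TTTGGCGC in 6.94% and 18.2%, beside 1.02%. The median difference was -2.20 over 47 mitosis genes with TTTGAA and -1.51 over 25 without it. These are matches of letters and show no binding. Promoters of Cdk1 (chr10:69352863-69353162, minus strand), Kif11, a spindle motor (chr19:37376132-37376431, plus strand), and Ube2c, which tags mitotic cyclins for destruction (chr2:164769679-164769978, plus strand), are shown as examples that hold both motifs, with TTTGAA and CCAAT or their reverse complements in capitals. Kif11 fell by 2.89 ± 0.20 and Ube2c by 2.79 ± 0.21. The promoter of Cdc6 (chr11:98907901-98908200, plus strand) is shown for the replication genes, with the reverse complement of TTTCCCGC in capitals.
Cdk1: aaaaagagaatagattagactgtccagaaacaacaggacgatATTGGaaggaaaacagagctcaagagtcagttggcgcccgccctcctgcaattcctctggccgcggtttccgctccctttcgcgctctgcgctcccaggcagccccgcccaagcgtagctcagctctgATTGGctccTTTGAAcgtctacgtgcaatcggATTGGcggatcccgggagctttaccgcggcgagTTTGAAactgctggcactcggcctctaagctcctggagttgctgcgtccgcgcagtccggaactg
Kif11: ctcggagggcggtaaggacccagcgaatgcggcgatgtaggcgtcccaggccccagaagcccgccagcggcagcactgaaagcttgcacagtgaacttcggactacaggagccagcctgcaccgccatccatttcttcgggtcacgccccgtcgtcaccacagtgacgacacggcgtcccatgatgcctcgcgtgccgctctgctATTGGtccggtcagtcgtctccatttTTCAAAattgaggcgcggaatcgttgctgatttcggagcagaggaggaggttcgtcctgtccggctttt
Ube2c: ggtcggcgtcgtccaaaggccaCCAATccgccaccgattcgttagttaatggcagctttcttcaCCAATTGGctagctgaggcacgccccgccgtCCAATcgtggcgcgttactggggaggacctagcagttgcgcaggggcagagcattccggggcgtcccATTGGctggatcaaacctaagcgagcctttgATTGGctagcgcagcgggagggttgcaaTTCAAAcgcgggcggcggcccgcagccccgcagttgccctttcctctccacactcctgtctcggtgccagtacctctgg
Cdc6: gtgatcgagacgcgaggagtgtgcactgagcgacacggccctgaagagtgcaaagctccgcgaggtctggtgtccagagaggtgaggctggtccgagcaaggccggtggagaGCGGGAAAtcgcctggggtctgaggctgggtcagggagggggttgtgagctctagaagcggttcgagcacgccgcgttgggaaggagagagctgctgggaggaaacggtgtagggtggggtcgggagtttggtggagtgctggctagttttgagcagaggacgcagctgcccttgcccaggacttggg

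Growth and energy genes changed far less than cell division genes. Of 61 ribosomal protein genes 5 were lower and none higher, with a median of -0.08. They were Rps26, Rps27l, Rpl5, Rpl28 and Rpl15, of which Rpl5, Rpl28 and Rpl15 lost their calls in 3, 1 and 4 of the 6 fits that left out 1 array, and each of them did so without WT_S2 replicate 3 (-0.52, -0.24 and -0.20). Of 59 ribosome biogenesis genes 15 were lower and none higher, with a median of -0.16. Under median centring 4 ribosomal protein genes were lower, and 11 biogenesis genes were lower with 2 higher. Wdr12 and Nop16, ribosome assembly factors, fell by 0.88 ± 0.13 and 0.61 ± 0.10. Of 74 respiratory chain genes 26 were lower and none higher, with a median of -0.22. With median centring 18 were lower, and the list median stayed below 0 at -0.17, where the median of all genes was 0.06. The complex I subunit gene Ndufc2 read 10.03, 10.24 and 10.25 in S3, against 10.70, 10.71 and 10.95 in S2. Of 25 measured glycolysis genes 4 were higher and 8 lower. The glucose transporter genes Slc2a3 and Slc2a1 rose by 1.22 ± 0.15 and 0.77 ± 0.13, while the enzyme genes Pgk1, Pgam1, Pfkp and Gapdh had differences of -0.62 ± 0.10, -0.56 ± 0.11, -0.43 ± 0.09 and -0.41 ± 0.08.

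Survival genes changed on both sides. Bcl2, which blocks the mitochondrial path to cell death, read 10.88, 10.74 and 10.61 in S3, against 9.15, 8.45 and 8.20 in S2, a difference of 2.15 ± 0.20. Bcl2l1 (Bcl-xL) rose by 0.80 ± 0.11. The opposing gene Bcl2l11 (Bim) also rose, by 1.48 ± 0.19, and the pore-forming effector gene Bak1 fell by 0.72 ± 0.10. Of 16 measured BCL2 family genes 5 were higher and Bak1 alone lower. The other higher members were less stable. Mcl1 (0.42 ± 0.12) lost its call without WT_S2 replicate 2 (0.30) and without WT_S3 replicate 2 (0.33). Bbc3 (0.48 ± 0.15) lost it without either of these (0.35 and 0.46), without WT_S2 replicate 3 (0.52) and without WT_S3 replicate 1 (0.32).

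Costimulatory and inhibitory receptors also moved in both directions, 12 of 28 higher and 8 lower. Slamf6, which supports iNKT selection, read 6.91, 8.61 and 8.92 in S3, against 11.17, 11.39 and 11.28 in S2, a difference of -3.13 ± 0.36. Other SLAM family genes on chromosome 1 went the other way, with Cd244a, Ly9 (0.55 ± 0.08), Slamf7 and Cd48 (0.91 ± 0.10) all higher. Pdcd1 (PD-1), Icos and Cd200 fell by 1.73 ± 0.15, 1.51 ± 0.10 and 2.35 ± 0.21. Entpd1 (CD39), which degrades extracellular ATP, rose by 2.37 ± 0.19, and the TNF receptor gene Tnfrsf18 (GITR) by 1.04 ± 0.12. Tnfsf11 (RANKL) fell by 1.26 ± 0.18.

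Interferon-stimulated genes did not move as a block, 15 of 52 higher and 6 lower with a median of 0.08, but 3 interferon-induced transmembrane genes rose. Ifitm2 read 8.80, 8.30 and 8.63 in S3, against 5.23, 4.84 and 5.37 in S2. Ifitm1 read 5.54, 5.96 and 6.24 in S3, against 3.57, 3.65 and 3.29 in S2. Ifitm3 read 7.61, 7.47 and 6.69 in S3, against 5.36, 5.14 and 6.07 in S2. The differences were 3.43 ± 0.37, 2.41 ± 0.17 and 1.73 ± 0.27, with no overlap. These genes are closely related copies, which limits how far one can be told from another. The guanylate-binding protein gene Gbp5 rose by 1.63 ± 0.26, and 7 of 10 measured genes of the GBP and IRG GTPase families were higher and 1 lower. Oasl2 and Phf11b fell by 0.95 ± 0.13 and 0.67 ± 0.10. The class I gene H2-K1 and its regulator Nlrc5 rose by 0.75 ± 0.08 and 0.73 ± 0.10, with 5 of 23 class I pathway genes higher and 3 lower.

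Probe sets named for microRNA genes read precursor transcripts, and mature microRNAs were not measured. Of 170 measured 9 were higher and 7 lower, beside 10.4% higher and 13.2% lower among all genes tested. Of these, 2 lower ones form the Mir181a-1 and Mir181b-1 cluster of chromosome 1. Mir181b-1 read 2.43, 3.54 and 3.01 in S3, against 7.33, 6.95 and 8.12 in S2. Mir181a-1 read 2.39, 2.11 and 2.67 in S3, against 5.71, 5.06 and 5.66 in S2. Both were below the array median on all S3 arrays, which leaves the size of the change uncertain, and neither overlapped S2, with measured differences of -4.47 ± 0.57 (adjusted p = 1.79e-05) and -3.08 ± 0.59 (adjusted p = 0.00102). Mir181a-2, the copy on chromosome 2, fell by 0.76 ± 0.21, a call that was lost without WT_S2 replicate 2 (-0.66, adjusted p = 0.0676). As background, miR-181a tunes T cell receptor sensitivity in the thymus and is needed for iNKT development. The largest called increases among microRNA genes were Mir697 (1.68 ± 0.35) and Mir1938 (1.12 ± 0.15), while the highest difference of the list, 1.9993, was not called. Mir27a and Mir142 rose by 0.90 ± 0.18 and 0.75 ± 0.17. RefSeq (GRCm38.p6) gives a 5p and a 3p mature sequence for Mir181a-1 and for Mir181b-1, and only the 5p sequences share a seed. These 5p sequences are printed with the seed, bases 2 to 8, in capitals. They lie at chr1:137966468-137966490 and chr1:137966650-137966673, on the plus strand.
mmu-miR-181a-5p: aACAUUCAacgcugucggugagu
mmu-miR-181b-5p: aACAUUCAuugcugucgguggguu

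Several genes among the largest decreases have no evident place in these groups. Pcsk1, a prohormone convertase, read 3.93, 5.20 and 4.74 in S3, against 8.47, 8.38 and 9.15 in S2. Tlr1, a Toll-like receptor gene, read 5.63, 5.27 and 5.54 in S3, against 8.56, 8.48 and 8.75 in S2. Ntrk3, a neurotrophin receptor gene, read 5.97, 6.67 and 5.67 in S3, against 9.24, 9.21 and 8.88 in S2. All were clearly separated, at -4.04 ± 0.35, -3.12 ± 0.12 and -3.01 ± 0.19. The structural genes Smtn (smoothelin) and Syne1 (nesprin-1) fell by 3.40 ± 0.15 and 3.29 ± 0.29, and Cntnap1, a contactin-associated protein gene, fell by 3.10 ± 0.38. Clock genes moved both ways, 5 of 16 higher and 5 lower, with a median of 0.27 and a highest difference of 1.88. Lower members included Nr1d1, Npas2, Cry1 and Arntl (BMAL1), at -1.91 ± 0.20, -1.34 ± 0.18, -1.09 ± 0.14 and -0.82 ± 0.12. Among solute carriers 24 of 210 were higher and 29 lower, close to the background shares, and Slc15a1, a peptide transporter gene, fell by 2.04 ± 0.25. Of 22 Hippo pathway genes 4 were higher and 2 lower, and Stk4 itself was not called (0.22 ± 0.11, adjusted p = 0.193).

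Markers of other cells changed with the stages in part. The myeloid marker list had 15 measured genes, 6 of them higher (C1qa, C1qb, Lyz2, Itgax, Fcgr3 and Aif1) and Ctss lower, and their mean lay between 5.89 and 6.04 on the S3 arrays, against 5.50 to 5.53 on the S2 arrays. C1qa lost its call in 4 of the 6 fits that left out 1 array (0.53 and 0.56 without WT_S2 replicates 2 and 3, 0.54 and 0.51 without WT_S3 replicates 1 and 3). The complement gene C1qb rose by 1.05 ± 0.23 and the lysozyme gene Lyz2 by 1.38 ± 0.34, while 7 other markers of the list, among them Cd14 and S100a8, were below the filter. Fcgr3, counted above among NK receptors, is in this list too. Of 8 conventional T cell markers 3 were lower (Igfbp4, Lef1 and Ccr7), at -2.66 ± 0.15, -0.85 ± 0.12 and -2.35 ± 0.20, with list means between 6.70 and 6.78 in S3, against 7.39 to 7.75 in S2. The B cell marker Cd22 rose by 1.24 ± 0.14, with most other B cell markers below the filter. Pecam1, the only called endothelial or stromal marker, fell by 1.53 ± 0.16. The part of such cells in the results was not tested.

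The step from S1 to S2 is given beside the step from S2 to S3. The S2 arrays serve both steps, so the steps were not correlated. From S1 to S2, 501 genes were called (3.84%), far fewer than from S2 to S3. Stat4 averaged 4.97, 7.66 and 10.31 at S1, S2 and S3. Tbx21 averaged 7.41, 8.62 and 9.89, and Klrk1 3.88, 5.06 and 9.62. All 3 genes were called at both steps. Il23r went up by 4.66 ± 0.56 to S2 and down by 4.01 ± 0.56 to S3, and Il1r1 and Serpinb1a did likewise (3.23 ± 0.29 then -2.85 ± 0.29, and 2.48 ± 0.26 then -2.49 ± 0.26). Several genes called between S3 and S2 were not called between S2 and S1. The S1 to S2 change was 0.48 ± 0.24 for Klre1, -0.45 ± 0.20 for Bcl2, 0.07 ± 0.16 for S1pr1, -0.15 ± 0.20 for Cdk1 and 0.30 ± 0.57 for Mir181b-1.

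**Figure D5:**
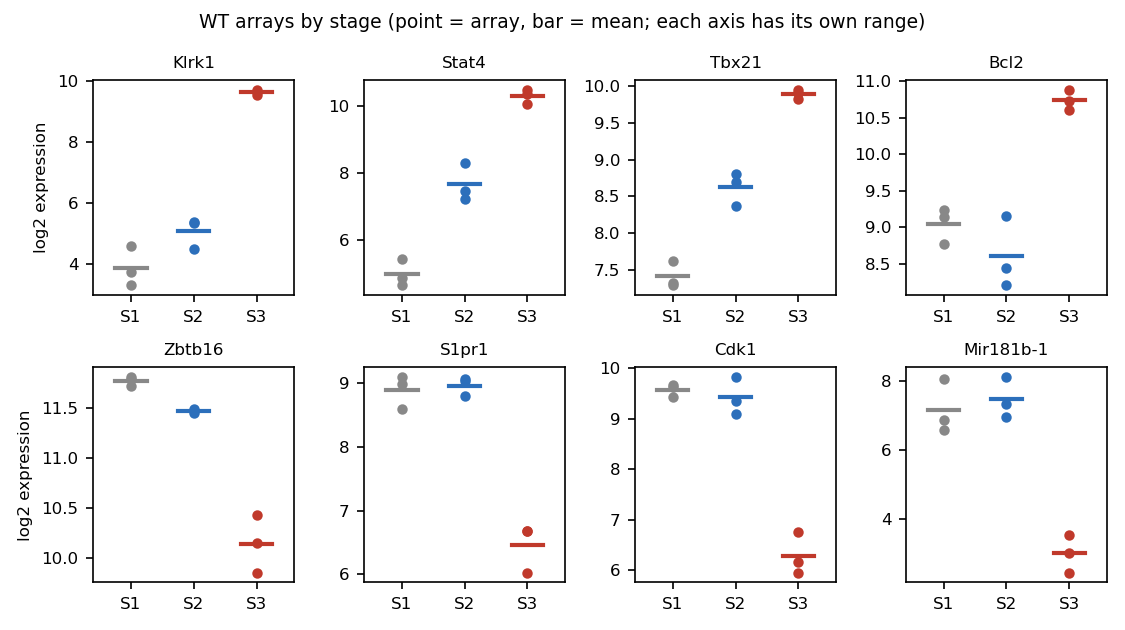
Log2 expression of 8 genes on the WT arrays in the order S1, S2 and S3, each point an array and each bar a group mean, with a separate vertical range per gene. Klrk1, Stat4 and Tbx21 step up at each stage, while Bcl2, S1pr1, Cdk1 and Mir181b-1 change between S2 and S3.

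The same step in Mst1KO mice gave 2240 called genes (17.2%). The WT change minus the Mst1KO change was called for 48 genes (0.368%), so most genes did not differ detectably with 3 arrays a group. For the NK receptor genes the WT and Mst1KO changes were 5.94 and 6.33 for Klre1 and 4.56 and 5.01 for Klrk1, and for Cdk1 -3.13 and -1.98, with no difference called. The difference was called for Ifitm1, which changed by 2.41 ± 0.17 in WT and 0.13 ± 0.17 in Mst1KO (adjusted p = 0.000585), and for Ifitm2, at 3.43 ± 0.37 and 0.25 ± 0.37 (adjusted p = 0.0114). Among decreases it was called for Myb, at -2.74 ± 0.15 in WT and -0.88 ± 0.15 in Mst1KO (adjusted p = 0.000821), and S1pr1, at -2.49 ± 0.16 and -0.74 ± 0.16 (adjusted p = 0.00191).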

How the data were processed

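The 18 arrays (3 per group, 6 groups) measured gene expression. RMA and Affymetrix Expression Console 1.1 are named in the submitters' processing notes, and the table the authors deposited gives 1 log2 value for each probe set on each array, from 1.46 to 13.5. RMA as usually run makes array distributions alike, so a shift of all genes would not be seen.

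Of 41345 probe sets 23521 named 1 gene, 1814 several and 16010 none in the platform annotation. The brightest probe set stood for each gene, and a gene was kept if above its array's median on at least 3 of 18 arrays, which left 13034. A limma 3.58.1 model (R 4.3.3) over all 6 groups shared 1 estimate of spread (12 residual degrees of freedom), with Benjamini-Hochberg adjustment at 0.05. Tables and figures were made in Python 3.11.15 with pandas 2.3.3 and matplotlib 3.10.9. On simulated data for this comparison (13034 genes), 67, 67 and 66 genes were changed by 0.5, 1 and 2 (log2). Of these, 32.8%, 83.6% and 98.5% were recovered, and 4.67% of calls were genes left unchanged. Far fewer genes were changed than the 3073 called in the data, so these shares need not hold there.

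Named were the 20 called genes with the largest difference in each direction whose groups did not overlap, and the gate genes. Further names were taken from the up to 6 genes per list with the lowest p, the longest neighbour runs and other list members. The genes and lists were chosen with earlier results of these data known. Alternatives were other filters, scalings, variance models, a 1.5-fold minimum, averaging probe sets of 1 gene, the 6 arrays alone, the replicate block and leaving out each array, and, chosen after seeing the data, lists without the gate genes.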

Additional observations from a re-analysis of the deposited data

Results flagged for a closer look

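For 19 of 346 genes followed, the stage change differed between WT and Mst1KO mice by the interaction term of the limma model. Over all genes tested it differed for 48 of 13034 (0.368%). Many of the 346 were chosen by their WT change, which is part of this difference, so the 19 are not a neutral sample. Each of the 19 is given as the WT change minus the Mst1KO change (log2), with its adjusted p and then the change in WT and in Mst1KO.

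Among genes higher in WT S3, the difference was 3.18 for Ifitm2 (adjusted p = 0.0114, changes 3.43 and 0.25), 2.28 for Ifitm1 (adjusted p = 0.000585, changes 2.41 and 0.13) and 1.03 for Cd22 (adjusted p = 0.0336, changes 1.24 and 0.21). It was 1.65 for Klf4 (adjusted p = 0.0248, changes 0.93 and -0.72) and -1.05 for Itga4 (adjusted p = 0.0336, changes 0.65 and 1.71). For Itgae, not called in WT, it was 1.08 (adjusted p = 0.0272, changes 0.39 and -0.68).

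Among genes lower in WT S3, it was -2.06 for Emb (adjusted p = 0.0114, changes -4.13 and -2.07), -1.86 for Il17rb (adjusted p = 0.00284, changes -3.95 and -2.10), -1.14 for Tlr1 (adjusted p = 0.00636, changes -3.12 and -1.98) and -1.75 for S1pr1 (adjusted p = 0.00191, changes -2.49 and -0.74). Further values were -1.36 for Itgb3 (adjusted p = 0.00551, changes -2.45 and -1.09), -1.09 for Irf4 (adjusted p = 0.0114, changes -2.72 and -1.63), -1.87 for Myb (adjusted p = 0.000821, changes -2.74 and -0.88) and -1.38 for Aff3 (adjusted p = 0.0212, changes -1.91 and -0.53). The cell cycle and repair genes were E2f2 at -0.94 (adjusted p = 0.0192, changes -2.004 and -1.06), Neil3 at -1.18 (adjusted p = 0.0212, changes -2.45 and -1.27) and Hmmr at -1.27 (adjusted p = 0.0396, changes -2.51 and -1.23). Mir1929 had -2.16 (adjusted p = 0.0114, changes -0.99 and 1.16), opposite in sign. Tgfbr3 had 1.11 (adjusted p = 0.00822, changes -0.58 and -1.68), the larger decrease being in Mst1KO.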

How the results depend on the processing

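The count of 3073 genes was 525 when a change beyond 1.5-fold was tested (178 higher, 347 lower) and 2037 when the 6 arrays were fitted alone (882 higher, 1155 lower), a fit with fewer samples. The 48 genes that differed between WT and Mst1KO became 1 with the 1.5-fold minimum, 15 when only the S3 and S2 arrays of both genotypes were fitted, and 35 to 93 when 1 array was left out, with 93 without WT_S3 replicate 3. Under the 1.5-fold minimum 3 immediate early genes were higher and 22 replication genes lower. Leaving out 1 array gave 2515 to 2932 calls. Median centring gave 1775 higher and 1434 lower genes, against 1356 and 1717. Deviations of same-numbered S3 and S2 arrays correlated at 0.06, -0.01 and 0.08, beside -0.085 to 0.026 for arrays of unlike number. With 3 arrays a group these values cannot settle whether the replicate numbers pair the arrays, and the labels do not say. The replicate block gave 3069 calls, 2889 of them shared with the main fit. Of 309 called genes followed through the alternatives (those of the naming rule and further list members), 277 kept their call outside the 1.5-fold and fewer-array fits, 29 lost it in at least 1 leave-one-out fit and 0 reversed. Uncalled genes that changed sign when 1 array was left out were Clec2i (-0.077 to 0.33, lowest without WT_S3 replicate 2), Dapl1 (-0.43 to 0.028, highest without WT_S2 replicate 2), Actn1 (-0.036 to 0.30, lowest without WT_S3 replicate 3), Ciita (-0.12 to 0.14, also -0.015 without WT_S3 replicate 1), Itga2b (-0.012 to 0.47, lowest without WT_S3 replicate 1) and Col1a2 (-0.027 to 0.16, lowest without WT_S2 replicate 3). The cause of these moves was not tested.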

Other observations

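Probe sets without a single gene name were tested apart. Of 1021 that name several genes 46 were higher and 56 lower in WT S3 than in WT S2, and of 8443 without a gene name 127 were higher and 150 lower. In both sets these shares were smaller than the 10.4% higher and 13.2% lower among the genes tested.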
